A study of Mus musculus with 6 samples.

Results

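The genes described here encode chromatin modifiers, including the co-repressors through which the retinoblastoma protein is known to silence promoters, and their transcript levels were compared between Rb null and wild type fetal livers. They were taken from a list of 56 mouse genes. All probe sets that the platform annotation assigns to a single listed gene were used, which gave 61 probe sets for 48 of the 8251 genes on the array. Suv39h1, Cbx3, Mta1, Dnmt3b, Hmgb1, Hmgn2, Hmga1 and Ep300 had no such probe set and are not analysed here. The livers came from 6 embryos of matings between 129sv mice heterozygous for Rb, collected untreated at embryonic day 12.5, dissected and disaggregated in saline. There were 3 Rb null and 3 wild type embryos, each read on its own Affymetrix array from 6 ug of total RNA, so n = 3 per genotype throughout. The labels give neither the sex nor the litter of an embryo, and neither which part of Rb is deleted nor how the allele was made.

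The retinoblastoma protein binds E2F transcription factors and recruits enzymes that close chromatin. Histone deacetylases, the SIN3 scaffold with its histone-binding subunits, the H3K9 methyltransferases with the HP1 proteins that read their mark, ATP-dependent remodellers and DNA methyltransferases have all been linked to this repression. Polycomb proteins keep developmental genes silent by methylating H3K27 and ubiquitinating H2A, and several of their genes are known E2F targets. In the fetal liver of this age most cells are maturing erythroblasts, in which the nucleus condenses before it is expelled.

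Levels are deposited MAS5 signals, in arbitrary units in which the trimmed mean of every array was about 500.2. Changes are log2 differences of Rb null from wild type after 50.02 was added to each signal, given with their SE from limma; this offset understates the change of dim probe sets. Probe sets with a mean signal above 150.1 were tested, each gene stands as its brightest probe set by mean signal, and a gene is said to have risen or fallen only at a limma adjusted p below 0.05, adjusted over all 6793 tested probe sets. The signal of different probe sets cannot be compared with each other, and the number of arrays limits the precision. In a whole liver, fewer cells that express a gene and less of its RNA per cell cannot be told apart.

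Rb1 itself read 139, 142 and 127 in the Rb null embryos and 791, 754 and 706 in the wild type embryos, so the groups did not overlap (-2.10 ± 0.09, limma adjusted p = 7.8e-06); where its probes lie relative to the deletion is not given. The median signal of an array lay between 197.6 and 203.3 in Rb null and between 176.6 and 186.5 in wild type livers. Fetal liver markers were present on every array: all 12 erythroid and all 12 hepatoblast markers with a probe set passed the filter, with Hba-a1 and Alb among the brightest, and no marker of any list was at 0. Of the erythroid markers 7 of 12 fell (summed signal 78795 to 85899 in Rb null, 95589 to 106531 in wild type livers), and of the proliferation markers 7 of 16 fell (39571 to 40169 against 45760 to 49070.2). Markers of other blood cells rose in 3 of 8 for macrophages (summed signal 5828 to 6247 in Rb null, 5127 to 5505 in wild type livers), 2 of 3 for megakaryocytes (2187 to 2581, 1388 to 1468), 5 of 8 for granulocytes (11794 to 11903, 9079 to 9190.3) and 2 of 6 for progenitors (5878 to 6281, 4644 to 4853). Markers of endothelium rose in 2 of 6 (4461 to 4885, 3715 to 4006) and those of mesenchyme in 4 of 7 (12245 to 13873, 9771 to 10200.3). Of the hepatoblast markers 2 of 12 fell and none rose, but 7 of 12 changes were above 0, with a median of 0.05. The hepatoblast sums overlapped between the genotypes (44613 to 47445 in Rb null, 47150.2 to 50958 in wild type livers). The summed signals take in every listed marker with a probe set, also those below the filter, whereas the counts cover tested markers only. These shifts are in the same 6 livers as every change below, and their part in those changes was not tested.

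Of the 48 genes, 44 passed the signal filter, 5 rose, 1 fell and 38 did not pass the test. The risen genes were the deacetylase genes Hdac5 and Hdac6, the H3K9 methyltransferase gene Ehmt2, the polycomb gene Phc1 and the remodeller gene Smarca2, and the gene that fell was Hmgb3. The share that rose, 11.4%, was near the 13.1% of all 5273 tested genes that rose, and the share that fell, 2.27%, stood beside 9.5% of all tested genes, of which 22.6% passed in either direction. Over probe sets, 12.8% rose and 9.08% fell. The median change of the 44 was 0.04, against 0.02 over all tested genes, and the median absolute change was 0.13 against 0.16. All 3 Rb null embryos lay above all 3 wild type embryos for 11 of the 44 genes and below them for 7, while this held for 23.5% and 17.6% of all tested genes; in either direction the genotypes did not overlap for 41.2% of all tested genes. The share of the list that passed did not exceed that of the array, and what follows is about its single genes and classes. The rises of Ehmt2, Hdac5, Phc1 and Smarca2 passed the test under every scaling of the arrays that was tried, whereas the falls depended on the scaling: with the arrays scaled to equal medians, which moved the median change of all tested probe sets from 0.02 to -0.10, 10 members fell and 4 rose.

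**Figure D1:**
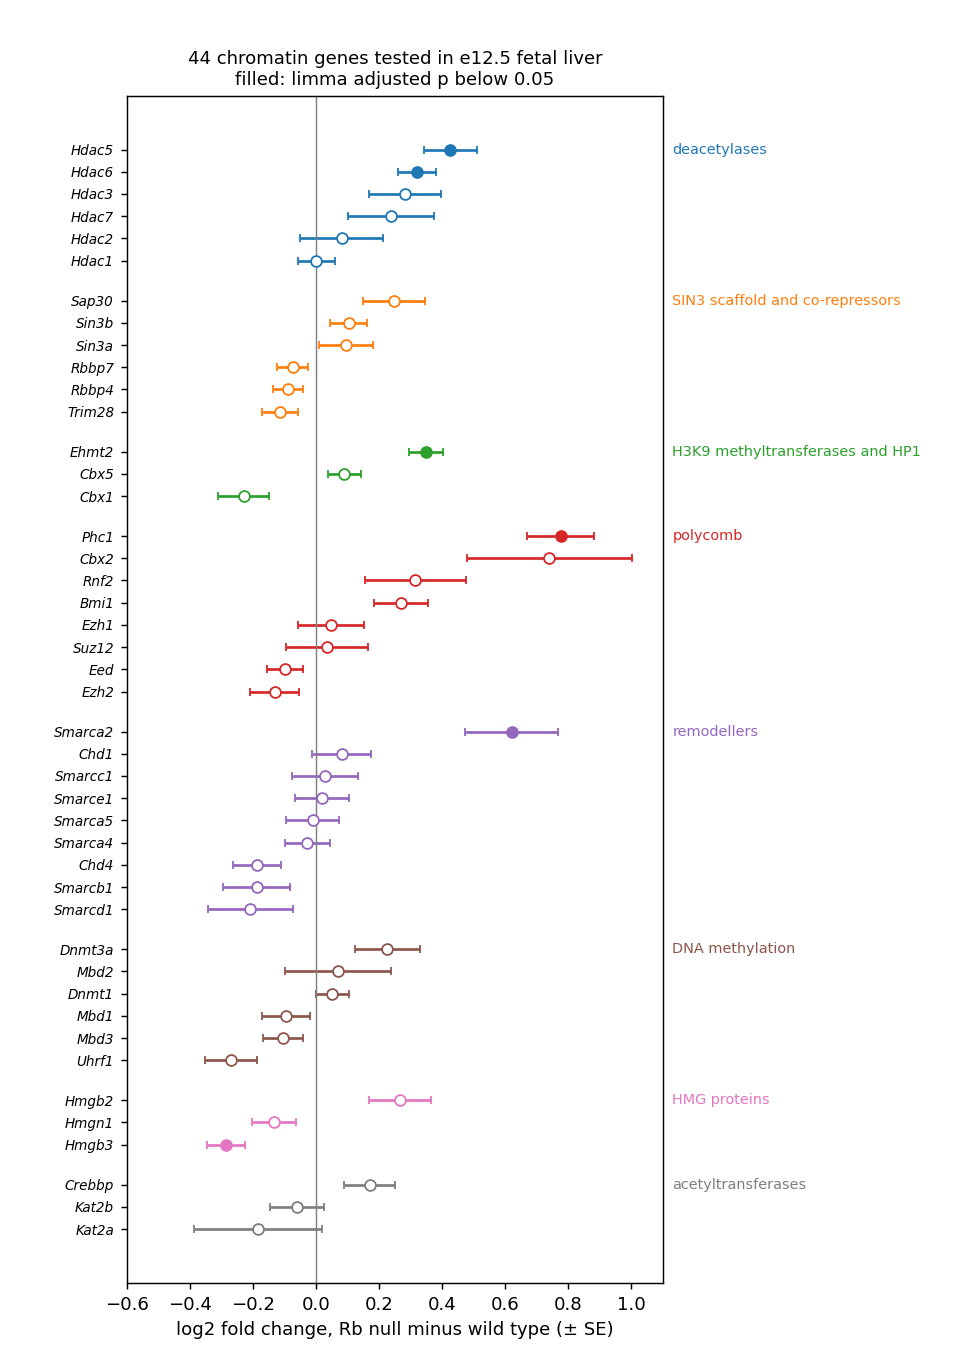
Log2 fold change of Rb null over wild type (x axis) of the 44 tested chromatin genes, 1 row per gene grouped by class; points are limma estimates from 3 embryos per genotype, bars are SE, and filled points passed a limma adjusted p of 0.05. The 5 filled points to the right of 0 are Hdac5, Hdac6, Ehmt2, Phc1 and Smarca2, the filled point to the left is Hmgb3, and most genes lie within 0.3 of 0.

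Among the deacetylases, the enzymes that remove acetyl groups from histones and other proteins, 2 of 6 tested genes rose, none fell and 4 did not pass, with a median change of 0.26, which was 0.14 with equal array medians and also 0.14 without wild type embryo 2. Hdac5 encodes a class II deacetylase that shuttles between nucleus and cytoplasm. Its signal was 815, 809 and 949 in the Rb null and 667, 595 and 612 in the wild type embryos, so that the lowest Rb null embryo lay above the highest wild type embryo (858 ± 79.0 against 625 ± 37.4, SD; 0.43 ± 0.08, limma adjusted p = 0.0099). Hdac6, a largely cytoplasmic deacetylase whose best known substrate is tubulin, read 1429, 1358 and 1352 against 1051, 1157 and 1081, again without overlap (0.32 ± 0.06, limma adjusted p = 0.009). With equal array medians the Hdac6 change was 0.19 and its call was lost (limma adjusted p = 0.058), while Hdac5 kept its call.

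The deacetylases best known as partners of the retinoblastoma protein did not pass the test. Hdac1 read 1038, 1008 and 1064 in Rb null and 1061, 1051 and 997 in wild type embryos, and the genotypes overlapped fully (0.00 ± 0.06, 95% interval -0.13 to 0.14). For Hdac2, its close paralogue, the values were 1126, 1102 and 1505 against 1255, 1000.4 and 1248 (0.08 ± 0.13, 95% interval -0.22 to 0.38), with Rb null embryo 3 above the other 5. The intervals are not adjusted for the number of genes. Hdac3, the catalytic subunit of the NCoR complexes, read 336, 292 and 371 against 271, 234 and 288, higher in all Rb null embryos but not past the threshold (0.28 ± 0.11, limma adjusted p = 0.11). Hdac7 overlapped between the genotypes (0.24 ± 0.14, limma adjusted p = 0.25; 0.07 without wild type embryo 2). The sirtuin genes lay below the filter and were not tested: Sirt1 read 19.1 to 34.0 in Rb null and 17.2 to 40.0 in wild type embryos, and Sirt2 read 129, 156 and 148 against 119, 102 and 63.6.

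None of the 6 tested genes in the class of the SIN3 scaffold and co-repressors passed the test. Their changes ran from -0.11 (Trim28, listed here as a co-repressor) to 0.25, with a median of 0.01. Sap30, a subunit that stabilises the SIN3 deacetylase complex, read 367, 413 and 356 in Rb null and 344, 298 and 292 in wild type embryos, which did not overlap (0.25 ± 0.10, limma adjusted p = 0.11). The scaffold genes themselves overlapped, at 0.09 ± 0.09 for Sin3a and 0.10 ± 0.06 for Sin3b. Rbbp4 encodes a histone-binding protein first found through its binding to the retinoblastoma protein. Its values were 2625, 2660 and 2672 against 2864, 2779 and 2825, a small separation in the other direction (-0.09 ± 0.05, limma adjusted p = 0.22), and its paralogue Rbbp7 read 5414, 5366 and 5295 against 5785, 5440.2 and 5715 (-0.07 ± 0.05, limma adjusted p = 0.31). Trim28, the co-repressor of zinc finger proteins known as KAP1, read 7379, 7080.0 and 7600.0 against 7516, 8109 and 8276, with 1 wild type embryo inside the Rb null range (-0.11 ± 0.06, limma adjusted p = 0.19). With equal array medians Rbbp4 (-0.22, limma adjusted p = 0.024), Rbbp7 (-0.21, limma adjusted p = 0.033) and Trim28 (-0.25, limma adjusted p = 0.026) passed, whereas after quantile normalization Trim28 was at 0.05 and Rbbp7 at 0.08. Kdm5a, an H3K4 demethylase also named for binding the retinoblastoma protein, stayed at 52.1 or below on every array and was not tested.

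The H3K9 pathway had 3 measured genes, of which 1 rose. Ehmt2, also called G9a, adds methyl groups to H3K9 in euchromatin. Its signal was 1466, 1512 and 1461 in Rb null and 1132, 1146 and 1174 in wild type embryos, a spread within each genotype far smaller than the gap between them (1479.5 ± 28.4 against 1151 ± 21.7, SD; 0.35 ± 0.05, limma adjusted p = 0.0035). Leaving out each embryo in turn kept the Ehmt2 change between 0.33 and 0.36. Neither tested gene of the HP1 proteins, which bind methylated H3K9, passed the test. Cbx1 read 308, 311 and 308 against 363, 363 and 387, below wild type in every embryo but not past the threshold with the deposited scaling (-0.23 ± 0.08, limma adjusted p = 0.074). It passed with equal array medians (-0.35, limma adjusted p = 0.019), after quantile normalization (-0.33, limma adjusted p = 0.024) and after cyclic loess (-0.32, limma adjusted p = 0.027). A dimmer Cbx1 probe set, below the filter, overlapped between the genotypes. Cbx5 was close to 0 on both of its probe sets, at 0.09 ± 0.05 and -0.04 ± 0.08.

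**Figure D2:**
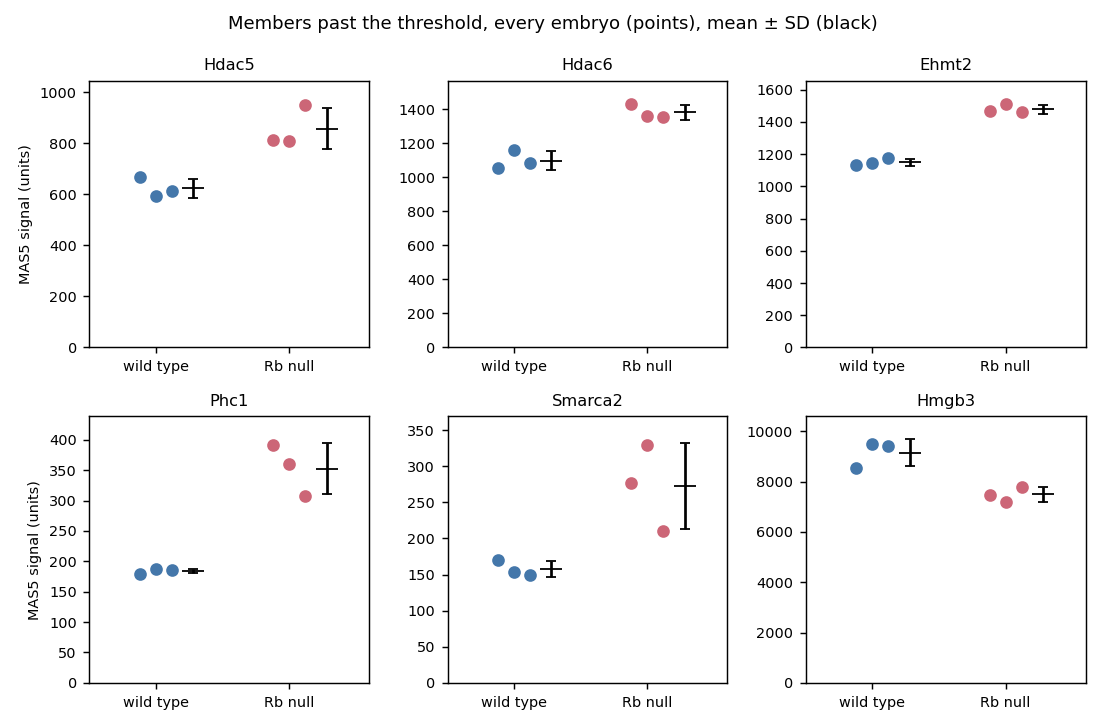
MAS5 signal (y axis, arbitrary units from 0) of the 6 genes past the threshold in every embryo, wild type on the left and Rb null on the right of each panel, with the mean and SD of 3 embryos in black. The genotypes do not overlap in any panel; Ehmt2 has the tightest groups, and Smarca2 spreads from 211 to 330.0 in the Rb null embryos.

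Of 8 tested polycomb genes, 1 rose and 7 did not pass, with 6 changes above and 2 below 0 and a median of 0.16. With equal array medians or the stricter filter the median was 0.04, with no filter 0.05, without wild type embryo 2 0.10 and with probe sets averaged per gene 0.29. Among the genes of the complex that ubiquitinates H2A, Phc1, a polyhomeotic subunit that lets polycomb complexes cluster, read 391, 359.6 and 307 in Rb null against 179.9, 187 and 186 in wild type embryos (353 ± 42.5 against 184 ± 3.81, SD; 0.78 ± 0.11, limma adjusted p = 0.0022). The change of Phc1, 1.71-fold on the offset scale, was the largest among the 44 genes, and no embryo of 1 genotype reached the range of the other. Cbx2, the chromodomain subunit, read 288, 343 and 346 against 235, 89.0 and 236; wild type embryo 2 was far below the other 2, and the change did not pass (0.74 ± 0.26, limma adjusted p = 0.079; without wild type embryo 2 it was 0.39, also not past the threshold). Bmi1, the partner of the ubiquitin ligase and a gene known for the renewal of blood stem cells, read 919.5, 921 and 901 against 781, 658 and 819 (0.27 ± 0.09, limma adjusted p = 0.055). Bmi1 passed with the stricter filter (limma adjusted p = 0.0458) and without suffixed probe sets (limma adjusted p = 0.0489). In both its change stayed at 0.27, and only the other probe sets in the fit differed. With equal array medians its change was 0.14 (limma adjusted p = 0.32). Rnf2, the ligase itself, read 702, 694 and 732 against 507, 452 and 764, where wild type embryo 3 lay above all others (0.31 ± 0.16, limma adjusted p = 0.2; without wild type embryo 3 it was 0.52, limma adjusted p = 0.01, and without wild type embryo 2 it was 0.17). Another Rnf2 probe set, below the filter, read 180.4 to 205 in Rb null and 78.9 to 103 in wild type embryos. Ring1, the paralogous ligase, read between 128 and 183 on all arrays and was not tested.

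The stretches of 200 bases before the annotated starts of Phc1, the member with the largest rise, and of Hdac5, another risen member, are shown as the promoters of risen genes. They lie at chr6:122340228-122340427 and chr11:102230173-102230372, both on the minus strand of GRCm38.p6 (RefSeq), and capitals mark CCAAT words (CCAAT or its reverse complement), of which Phc1 holds none and Hdac5 holds 2; neither holds an E2F-like word.
Hdac5: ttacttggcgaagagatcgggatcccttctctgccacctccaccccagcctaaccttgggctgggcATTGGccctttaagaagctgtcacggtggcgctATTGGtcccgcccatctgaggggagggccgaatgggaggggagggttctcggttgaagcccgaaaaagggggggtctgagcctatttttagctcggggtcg
Phc1: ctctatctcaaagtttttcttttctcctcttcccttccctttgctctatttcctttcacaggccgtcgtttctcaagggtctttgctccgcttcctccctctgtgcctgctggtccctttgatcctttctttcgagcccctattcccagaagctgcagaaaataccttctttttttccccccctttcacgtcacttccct

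The genes of the H3K27 methyltransferase complex showed no common change. Ezh2, its catalytic subunit in dividing cells, read 1770, 1912 and 1954 in Rb null and 2134, 1844 and 2223 in wild type embryos, which overlapped (-0.13 ± 0.08, 95% interval -0.31 to 0.05). Ezh1, the paralogue of resting cells, was at 0.05 ± 0.10, and Eed, which binds the methylated histone, read 1025, 1028 and 1055 against 1084, 1135 and 1118 (-0.10 ± 0.06, limma adjusted p = 0.25). Suz12, the subunit that holds the complex together, gave different answers from its probe sets. The brightest read 709.5, 960.0 and 641 against 760.0, 724 and 736 and did not pass (0.04 ± 0.13, limma adjusted p = 0.88). The next brightest read 674, 657 and 645 against 385, 349.5 and 365, without overlap (0.77 ± 0.07, limma adjusted p = 0.00043), and it kept its call under every alternative in which it was tested, with changes between 0.64 and 0.83. The dimmest, below the filter, overlapped. Which part of the transcript each probe set reads is not known here, so no single change is stated for Suz12; the mean of its tested probe sets was 0.40 (limma adjusted p = 0.014).

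**Figure D3:**
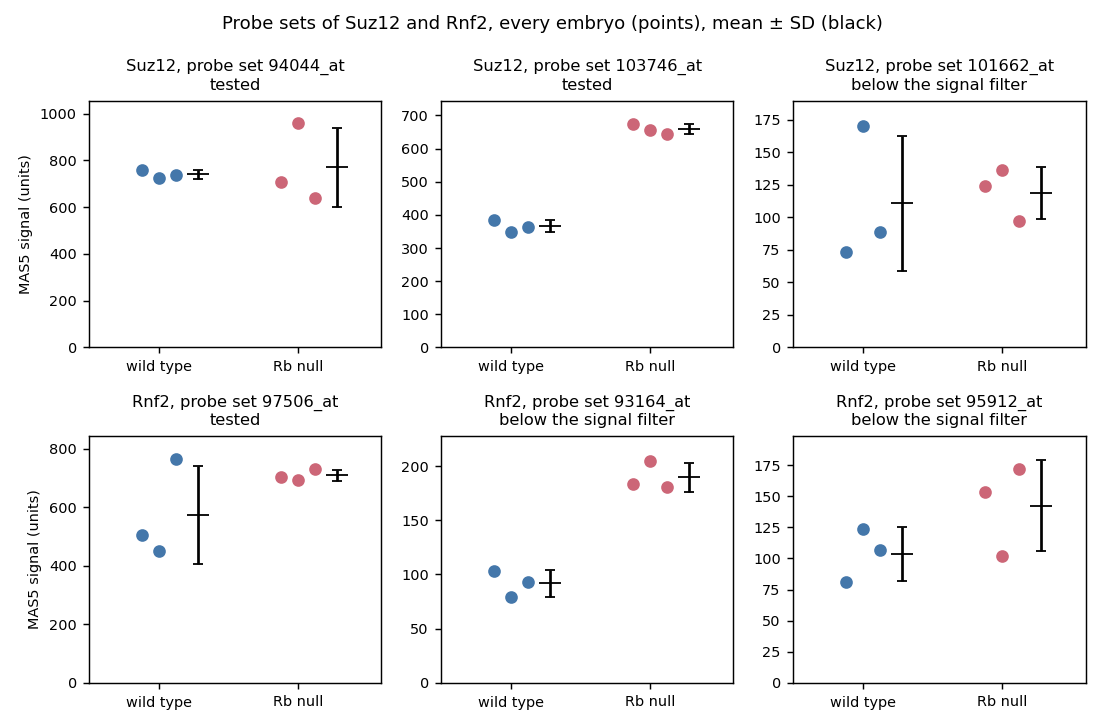
MAS5 signal (y axes, arbitrary units from 0) of the 3 probe sets of Suz12 (top) and the 3 of Rnf2 (bottom) in every embryo, with the mean and SD of 3 embryos in black. The genotypes separate on the Suz12 probe set that reads 349.5 to 674 and on the Rnf2 probe set that reads 78.9 to 205, and overlap on the brightest probe set of either gene.

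Of 9 tested remodeller genes, which encode subunits of machines that slide or evict nucleosomes, 1 rose and 8 did not pass, with a median of -0.01. Smarca2 encodes BRM, an ATPase of the SWI/SNF complex that is known to cooperate with the retinoblastoma protein. It read 277, 330.0 and 211 in Rb null against 171, 153 and 149 in wild type embryos (273 ± 59.8 against 158 ± 11.4, SD; 0.62 ± 0.15, limma adjusted p = 0.02). The groups did not overlap, but the Rb null embryos were widely spread and the wild type values lay near the filter of 150.1. The Smarca2 call was lost without Rb null embryo 1 (0.60, limma adjusted p = 0.07), without Rb null embryo 2 (0.49, limma adjusted p = 0.066), without wild type embryo 3 (0.59, limma adjusted p = 0.061) and with no filter (limma adjusted p = 0.0514). Smarca4, which encodes the alternative ATPase BRG1, read 2435, 2323 and 2546 against 2622, 2262 and 2571 (-0.03 ± 0.07, 95% interval -0.19 to 0.13). The difference between the changes of Smarca2 and Smarca4 was not tested.

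The core SWI/SNF subunits did not pass either. Smarcb1 read 1251, 1299 and 954 against 1295, 1341 and 1344, with Rb null embryo 3 apart from the rest (-0.19 ± 0.11, limma adjusted p = 0.25; -0.06 without it), and Smarcd1 read 329.7, 367 and 350.1 against 349, 517 and 382, with wild type embryo 2 highest (-0.21 ± 0.13, limma adjusted p = 0.3; -0.06 without it). Smarcc1 (0.03 ± 0.10) and Smarce1 (0.02 ± 0.09) were near 0. Smarca5, the ATPase of the ISWI complexes, was at -0.01 ± 0.08 and at -0.05 ± 0.08 on its other probe set, and Chd1 was at 0.08 ± 0.09. Chd4, the ATPase of the NuRD deacetylase complex, read 4393, 4660.4 and 5204 against 5075, 5803 and 5359, with 1 Rb null embryo inside the wild type range (-0.19 ± 0.08, limma adjusted p = 0.12). It passed without Rb null embryo 3 (-0.25, limma adjusted p = 0.0487) and with equal array medians (-0.32, limma adjusted p = 0.021). The only Chd4 probe set carries the suffix f, which marks probes that can be shared between genes, so its signal may not be of Chd4 alone.

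No gene of DNA methylation passed the test among 6, with a median of -0.02. Uhrf1, which brings the maintenance methyltransferase to newly replicated DNA and is a known E2F target, came closest. It read 1962, 1975 and 1797 in Rb null and 2146, 2615 and 2198 in wild type embryos, so the groups did not overlap (-0.27 ± 0.08, limma adjusted p = 0.051). It passed with equal array medians (-0.40, limma adjusted p = 0.0067) and with the replicate number as a block (limma adjusted p = 0.035). It also passed with the stricter filter (limma adjusted p = 0.042) and without suffixed probe sets (limma adjusted p = 0.0454). Averaging probe sets per gene gave limma adjusted p = 0.0487. Uhrf1 has 1 probe set, so filter, suffix and averaging left its change at -0.27 and altered only the other probe sets in the fit. Quantile and cyclic loess normalization left Uhrf1 at -0.21, where it did not pass. Without single embryos its change was between -0.32 and -0.18 and passed in no case. Dnmt1, the maintenance methyltransferase itself, read 2640, 2783 and 2616 against 2612, 2649.5 and 2489, and the genotypes overlapped (0.05 ± 0.05, 95% interval -0.07 to 0.17). Dnmt3a, a methyltransferase of new sites, read 353, 309 and 339 against 263, 258 and 314 (0.23 ± 0.10, limma adjusted p = 0.15). The methyl-CpG binding genes were at -0.10 ± 0.08 for Mbd1, 0.07 ± 0.17 for Mbd2 and -0.10 ± 0.06 for Mbd3, a NuRD subunit, and none passed.

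The HMG genes encode small, abundant proteins that bend DNA or loosen nucleosomes, and 1 of 3 tested fell. Hmgb3, the HMG box protein known from haematopoietic progenitors and early erythroid cells, read 7487, 7203 and 7804 in Rb null and 8533, 9504 and 9409 in wild type embryos, without overlap (7498 ± 300.3 against 9148 ± 535, SD; -0.28 ± 0.06, limma adjusted p = 0.014). This fall was 1.22-fold on the offset scale. The call was lost after quantile normalization and after cyclic loess (-0.09 and limma adjusted p = 0.15 in both), and without Rb null embryo 1 (-0.28, limma adjusted p = 0.0504) or wild type embryo 3 (-0.26, limma adjusted p = 0.0534). Without either of those embryos no member fell, while after quantile normalization or cyclic loess Cbx1 was the 1 fallen member. Hmgb2, which is known to be high in dividing cells, read 1537, 1633 and 1448 against 1491, 1154 and 1188, with wild type embryo 1 inside the Rb null range (0.27 ± 0.10, limma adjusted p = 0.091; without wild type embryo 1 it was 0.38, limma adjusted p = 0.019). Its probe set carries the suffix r, so its probes did not meet all of the platform's design rules. Hmgn1, a nucleosome-binding protein, overlapped (-0.13 ± 0.07, limma adjusted p = 0.22).

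The 200 bases before the annotated start of Hmgb3 lie at chrX:71555717-71555916 on the plus strand of GRCm38.p6 (RefSeq), and those of Uhrf1, from the more upstream of its 2 annotated starts, at chr17:56303137-56303336 on the plus strand. Capitals mark CCAAT words (CCAAT or ATTGG) and, in Uhrf1, also the E2F-like word TTCCCGC. The Hmgb3 stretch holds 3 CCAAT words and the Uhrf1 stretch 1 of either kind. Of the risen genes, Hdac5 and Hdac6 hold 2 CCAAT words each in the same stretch and Phc1 and Smarca2 none. The stretch of Ehmt2, which also rose, was not examined.
Hmgb3: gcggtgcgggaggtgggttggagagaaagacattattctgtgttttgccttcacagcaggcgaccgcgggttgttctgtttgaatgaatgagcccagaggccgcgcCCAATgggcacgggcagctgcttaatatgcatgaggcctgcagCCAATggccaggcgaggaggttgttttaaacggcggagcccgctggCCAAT
Uhrf1: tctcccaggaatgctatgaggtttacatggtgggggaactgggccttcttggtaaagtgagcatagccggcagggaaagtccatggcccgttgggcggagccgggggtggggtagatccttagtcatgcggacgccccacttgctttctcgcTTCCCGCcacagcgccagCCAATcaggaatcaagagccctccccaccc
CCAAT words, on either strand, were in 37.4% of the 32851 RefSeq mouse promoters of 300 bases. Counted by gene, with any promoter of the gene sufficing, they were in 21 of 48 listed genes with a promoter in that table. A rate by gene over all genes was not computed, so the 37.4% is not its background. These 48 are not the 48 genes with a probe set: they include Suv39h1 and Ep300 and lack Hdac1 and Hdac3.

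None of the 3 tested acetyltransferase genes, whose products oppose the deacetylases, passed the test. Crebbp, the CBP acetyltransferase and co-activator, read 508, 514 and 520.1 in Rb null and 432, 429.9 and 495 in wild type embryos, all higher but not past the threshold (0.17 ± 0.08, limma adjusted p = 0.17). Kat2a, also called GCN5, read 299, 533 and 587 against 501, 551 and 525. Rb null embryo 1 stood far below the other 5 for Kat2a, and the change of -0.18 ± 0.20 became 0.08 without it. Kat2b, also called PCAF, was at -0.06 ± 0.09.

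**Figure D4:**
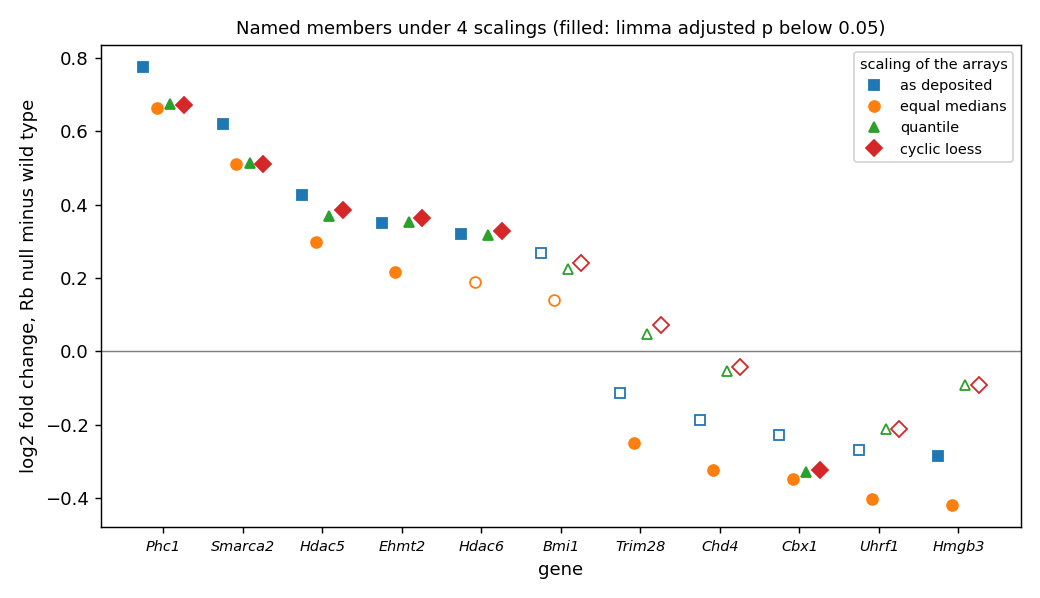
Log2 fold change of Rb null over wild type (y axis) of 11 named members under 4 scalings of the arrays, 1 symbol and colour per scaling, filled where the limma adjusted p was below 0.05. Phc1, Smarca2, Hdac5 and Ehmt2 are filled under all 4 scalings, Hdac6 is open with equal medians, and Trim28 lies on both sides of 0.

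The bright probe sets leaned lower in the Rb null arrays. The tested genes were split by mean signal into 4 bands of equal size. In the brightest band (mean signal above 1298) 33.4% of all genes had a change above 0, with a median of -0.09, and 8.57% rose and 24.6% fell. Of the 17 members there 7 were above 0, with a median of -0.07, and 1 rose (Ehmt2) and 1 fell (Hmgb3). In the dimmest band (up to 313) 65.4% of all genes were above 0, with a median of 0.08, and 13.3% rose and 0.834% fell. All 7 members there were above 0, with a median of 0.28, and 2 of them, Phc1 and Smarca2, rose. In the band from 634 to 1297, which held Hdac5, Hdac6 and the SIN3-associated Hdac1 and Hdac2, 9 of 13 members were above 0 against 53.9% of all genes. There 2 members rose and none fell, while of all genes in this band 15.7% rose and 8.95% fell. In the band from 314 to 634 none of the 7 members passed, while of all genes there 14.8% rose and 3.64% fell. Of these 7 members 3 were above 0, against 62.6% of all genes. The part of this lean in the changes of the members was not tested.

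Because several of these genes are textbook targets of E2F, their promoters were searched for the words TTCCCGC, with TTGGCGC, with TTGCCGC and with TTCGCGC on both strands, over 250 bases before and 50 bases after each annotated RefSeq start (GRCm38.p6). Counted by promoter, at least 1 word was in 9.57% of the 32851 promoters of this length in the table. Counted by gene, any promoter of the gene sufficed, so the 9.57% is not the background of the counts by gene. By gene a word was in 21.1% of the 4297 tested genes with a promoter there, and in 11 of the 37 tested members with a promoter there. Of these 11 members, 9 had a change below 0, with a median of -0.13, and none passed the test. Suz12 is counted among the 11 by its brightest probe set (0.04), while its next brightest passed (0.77 ± 0.07, limma adjusted p = 0.00043). Of all 907 tested genes with a word 49.8% were below 0, with a median of 0.00, and 11.5% rose and 10% fell. Of the other 26 members 8 were below 0, with a median of 0.10, and they included all 6 genes that rose or fell. Of all 3390 tested genes without a word 46.1% were below 0, with a median of 0.02, and 13.1% rose and 9.56% fell. Over the array the shares called were thus close with and without a word. These are counts of letters, made with the changes already known and without a test, and Dnmt1, Ezh2, Mbd3, Rbbp4, Trim28 and Uhrf1 among the 11 lie in the brightest band, which leaned lower. The word nearest to a start is shown in capitals, with its flanks, for the members with the word whose change was furthest below 0 (Uhrf1, Cbx1, Smarcd1, Smarcb1 and Kat2a), for the H3K27 methyltransferase genes Ezh2 and Suz12, and for Rbbp4, where words overlap (GRCm38.p6).
Uhrf1, chr17:56303279-56303305, plus strand: gctttctcgcTTCCCGCcacagcgcca
Cbx1, chr11:96789046-96789072, plus strand: cggcgcgggaTTCGCGCggtactttgg
Smarcd1, chr15:99702147-99702173, plus strand: cagcacgcctTTCCCGCtagtcgcccc
Smarcb1, chr10:75921649-75921675, minus strand: ttaagggcttGCGGGAAcgcgctcggc
Kat2a, chr11:100712510-100712536, minus strand: aggatgggaaGCGGCAAaggaagacta
Ezh2, chr6:47595010-47595036, minus strand: gttgctgcgtTTGGCGCtcggtccggt
Rbbp4, chr4:129335366-129335392, minus strand: gtcggtgTTGGCGCGAAggcacgcgag
Suz12, chr11:79992878-79992904, plus strand: acccctcattTTCCCGCgaattcagtt
In Rbbp4 a pair of words overlaps, TTGGCGC with GCGCGAA (the reverse complement of TTCGCGC), just before the start, and in Ezh2 the word begins 4 bases after it. The word of Suz12 begins 218 bases before the start and that of Uhrf1 48 bases before.

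A wider list of 145 other chromatin genes had 69 genes with a probe set and 59 tested, of which 5 rose, 4 fell and 50 did not pass, with a median of -0.01; this share, too, was below the 13.1% and 9.5% of all genes. Kdm3a, an H3K9 demethylase, had the largest rise, from 683 ± 21.1 to 1314 ± 25.1 (SD; 0.90 ± 0.06, limma adjusted p = 0.00011). Hmga2, an architectural protein of embryonic cells, rose from 1232 ± 29.6 to 1855 ± 101 (0.57 ± 0.06, limma adjusted p = 0.00064). Setdb1, the H3K9 methyltransferase that Trim28 recruits, rose by 0.41 ± 0.09 (limma adjusted p = 0.015), a call lost without wild type embryo 3 (0.35, limma adjusted p = 0.0511) and with equal array medians (limma adjusted p = 0.0527). Ss18, a SWI/SNF subunit, rose by 0.38 ± 0.11 (limma adjusted p = 0.038), and so did Jarid2, a partner of the H3K27 methyltransferase that was named after its value was seen (0.36 ± 0.10, limma adjusted p = 0.032). Leaving out single embryos ended both calls: for Ss18 any except wild type embryo 2 (limma adjusted p from 0.086 to 0.10), for Jarid2 any except Rb null embryo 3 (limma adjusted p from 0.062 to 0.088). The Ss18 call was also lost with equal array medians (0.26, limma adjusted p = 0.10), after quantile normalization (0.31) and cyclic loess (0.32), and with no filter or no intensity trend. The Jarid2 call was also lost with equal array medians (0.22, limma adjusted p = 0.10), after quantile normalization (0.33, limma adjusted p = 0.0544), and with no filter or no intensity trend.

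Of the fallen genes in that wider list, Kmt5a, which places the single methyl group on H4K20 and is known to be needed for chromatin condensation in erythroblasts, fell from 1975 ± 92.9 to 1300 ± 53.5 (SD; -0.59 ± 0.06, limma adjusted p = 0.00061), and it kept its call under every alternative. The histone chaperone gene Asf1a (-0.40 ± 0.09, limma adjusted p = 0.02), the histone acetyltransferase gene Hat1 (-0.37 ± 0.11, limma adjusted p = 0.041) and Baz1b, a subunit of ISWI complexes (-0.24 ± 0.05, limma adjusted p = 0.016), fell as well. The Asf1a call was lost without Rb null embryos 1 or 2 or wild type embryos 1 or 3 (limma adjusted p from 0.0505 to 0.075), and the Hat1 call when any embryo except wild type embryo 1 was left out (limma adjusted p from 0.072 to 0.10). The Hat1 call was also lost after quantile normalization (-0.26, limma adjusted p = 0.15) and cyclic loess (-0.27, limma adjusted p = 0.12). It was lost too with no filter (limma adjusted p = 0.085) or no intensity trend (limma adjusted p = 0.07), and when its probe sets were averaged (-0.18, limma adjusted p = 0.16). The Hat1 probe set with the call carries the suffix f, as that of Chd4 does. The Baz1b call was lost without Rb null embryos 1 (limma adjusted p = 0.054) or 2 (limma adjusted p = 0.0528), after quantile (-0.15) and cyclic loess normalization (-0.14), and when its probe sets were averaged, which gave 0.05.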

How the data were processed

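The deposited values are intensities, linear MAS5 signals per probe set and array (MAS5 is named in the submitters' processing notes, its version and settings are not stated), and the 2% trimmed means computed from them lay between 500.22 and 500.25. Members, classes, marker lists and words were chosen with earlier results of these data known. Probe sets were named from the platform annotation, and of 12488 probe sets 10833 had 1 symbol, 396 several, 1193 none and 66 were controls, which were left out. The signals were offset by 50.02, log2-transformed and, for the 6793 probe sets with a mean above 150.1, fitted with limma 3.58.1 in R 4.3.3 (lmFit, eBayes with an intensity trend, two-sided, Benjamini-Hochberg over all tested probe sets, threshold 0.05). Replicates are separate embryos. Tested on simulated 3 against 3 arrays with 6793 probe sets, the procedure recovered 28.4% of log2 changes of 0.3, 71.6% of 0.6 and 90.9% of 1. Only 67, 67 and 66 probe sets were changed by these amounts, whereas 867 rose and 617 fell in the data. The adjustment is stricter where fewer probe sets change, so these rates are not the recovery of the reported test. Alternatives were other scalings, offsets, filters and trends, the replicate number as a block, probe sets averaged per gene, no suffixed probe sets and leaving out each embryo. Named with values on every array were members past the threshold, the 2 smallest p values of each class and further members described after their values were seen; from the wider list, the 4 largest rises and falls.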

Additional observations from a re-analysis of the deposited data

How the results depend on the processing

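The count of risen members, 5 as reported, was 4 to 6 under every alternative, with the lowest and highest when single embryos were left out also 4 and 6. The genes counted were not always the same. With the stricter filter 3 of the 5 stayed, because Phc1 and Smarca2 lay below that filter, and Bmi1 was added. The count of fallen members, 1 as reported, was 10 with arrays scaled to equal medians and 2 with the stricter filter, no intensity trend, the replicate block, averaging probe sets per gene or no suffixed probe sets; leaving out embryos gave 0 to 2. Equal medians also moved the calls over all 6793 tested probe sets from 867 higher and 617 lower to 480 higher and 1361 lower. The stricter filter left only 3784 probe sets to test, of which 513 were higher and 650 lower. With the replicate block the fallen member added was Uhrf1 (limma adjusted p = 0.035) and the risen members stayed at 5. Deviations of same-numbered embryos correlated at -0.062, 0.049 and 0.272, and those of differently numbered embryos at -0.255 to 0.223. These few correlations cannot settle whether the numbers are pairs, and the reported fit did not take them as such.

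Changes near 0 turned sign with the scaling. With equal medians they were Hdac1 -0.13, Hdac2 -0.051, Sin3a -0.039, Sin3b -0.030, Cbx5 -0.043, Ezh1 -0.069, Suz12 -0.093, Smarcc1 -0.10, Smarce1 -0.10, Chd1 -0.051, Dnmt1 -0.083 and Mbd2 -0.047. After quantile normalization they were Hdac1 -0.020, Rbbp7 0.079, Trim28 0.047, Ezh1 -0.058, Suz12 -0.0029, Smarca4 0.060, Smarce1 -0.073, Mbd2 -0.034 and Hmgn1 0.038, and after cyclic loess Hdac1 -0.0078, Rbbp7 0.077, Trim28 0.070, Ezh1 -0.055, Suz12 -0.0024, Smarca4 0.046, Smarce1 -0.062, Mbd2 -0.029 and Hmgn1 0.079. Averaging probe sets gave Baz1b 0.051. Leaving out single embryos gave lowest and highest values on both sides of 0 for Hdac1 (-0.026 to 0.019), Hdac2 (-0.059 to 0.16), Ezh1 (-0.011 to 0.13), Suz12 (-0.12 to 0.15), Smarca4 (-0.092 to 0.012), Smarca5 (-0.090 to 0.039), Smarcc1 (-0.077 to 0.11), Smarce1 (-0.011 to 0.077), Chd1 (-0.017 to 0.13), Mbd2 (-0.052 to 0.23) and Kat2a (-0.35 to 0.084). The median of all members, 0.04 as reported, was -0.09 with equal medians. There the median of SIN3 and co-repressor genes was -0.12, of remodellers -0.14, of DNA methylation -0.15 and of HMG genes -0.27. After quantile normalization the SIN3 and co-repressor median was 0.11 and the HMG median 0.04. Equal medians multiplied each array by 1 factor and moved the median change of all tested probe sets from 0.02 to -0.10. For the other settings the cause of the turns was not tested. The signal over background and 3 embryos per genotype limit what small changes could be called.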
